A study of Mus musculus with 54 samples.

Results

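Otop2, Ush1g, Onecut3, Zfp503, Mex3b, Bcl11b, Ano1 and Mettl16 are 8 of the 20665 autosomal protein-coding genes in the mouse RefSeq table. They were chosen by measured counts: windows in them held more DNA captured with an antibody against 5-methylcytosine in intestinal adenomas than in normal mucosa. The adenoma excess at these genes is therefore a description and is given without a test. Gene bodies with 2000 bp on each side covered 1608 of the 10535096 windows of 250 bp in the deposited table, and 382 of these were among the 1172069 autosomal windows with enough counts to test. The lead window of a gene is the tested window that was higher in adenomas with the smallest p. Otop2 and Ush1g overlap and have the same lead window, which left 7 loci.

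The genes had been grouped as CpG island gains at regulatory genes, and the data bear out only some of that name. The lead windows of Otop2/Ush1g, Zfp503, Mex3b, Ano1 and Onecut3 had deposited CpG density scores of 27.6, 23.1, 22.8, 19.6 and 14.9. The score was 9.99 at Bcl11b and 5.46 at Mettl16, under the score of 10 from which a window is called CpG-dense here. The labels and the table do not state the scale of the score. Onecut3, Zfp503 and Bcl11b code for transcription factors, and Mex3b and Mettl16 for proteins that act on RNA. Otop2 and Ano1 code for ion channels and Ush1g for a scaffold protein, so these 3 are not regulators of gene expression.

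Adenomas and normal mucosa came from Apc Min mice and wild type mucosa from mice without the Min allele, all 15 to 19 weeks old. B6 is C57BL/6 (5 adenoma, 3 normal and 4 wild type libraries), and B6xPWD is its F1 cross with PWD (3 of each). C5 is a consomic line with PWD chromosome 5 on a C57BL/6 genome (3 of each), and C5F1 is its F1 cross with C57BL/6 (3 of each). C1_5F1 is the F1 cross of C57BL/6 with the line that has PWD chromosomes 1 and 5 (2 adenomas and 2 normal), and PWD itself gave 3 wild type libraries and no adenoma. The members lie on chromosomes 7, 10, 11, 12 and 14, so among these strains only B6xPWD and PWD carry PWD DNA there by design. The labels name neither sex nor animal, so p-values measure the spread between samples, which may share an animal. For the B6xPWD normal sample 11_6 the labels conflict, since its MeDIP library is called normal and its input wild type.

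Methylation of cytosine in CpG dinucleotides is a stable mark that is copied when cells divide. CpG islands, stretches dense in CpG that often hold promoters, are mostly free of it in normal tissue, and in intestinal tumours a set of islands gains it while other parts of the genome lose it. Methylation of an island at a promoter often goes with a silent gene, whereas methylation inside a gene has no such fixed relation. In Min mice, loss of the remaining Apc copy turns on Wnt signalling in crypt cells and starts the adenomas. The assay counts captured fragments, so a larger share of methylated cells and denser methylation per cell cannot be told apart in these bulk samples.

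The 46 MeDIP libraries had total counts of 8358806 to 27842607, the lowest in a C1_5F1 adenoma (5_4), and values below are in CPM, the counts divided by the scaled autosomal total. Lead windows hold few reads, for example 35 counts for 1.49 CPM. CpG-dense windows took 4.18% to 7.76% of the counts in adenomas, 4.06% to 6.82% in normal mucosa and 4.24% to 7.18% in wild type mucosa, and the lowest share in each tissue was that of a library whose label starts with 16. In the only input library, a B6xPWD adenoma without immunoprecipitation, the lead windows held 0 to 5 counts. The most alike libraries of a group, C5 normal 12_2 and 12_4, differed by 1.22 times the sampling noise and were kept as separate samples. Most pairs differed by far more. Pairs with a library labelled 16 ranged from 2.88 to 88.8 times (C5 wild type 12_11 and 16_1), and pairs without one reached 23.2 times (B6 normal 9_2 and 9_4).

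Promoters of 3 members are printed to show how the gains lie to start sites. Each is 300 bases from RefSeq (GRCm38.p6), 250 before the start and 50 after it, 5′ to 3′ on the strand of the gene, with CpG sites in capitals. The table held starts for 6 of the 8 members (not for Onecut3 and Ush1g). Ano1 is shown because its gain reached into its promoter, and Mex3b and Zfp503 because theirs lie farther inside the gene.
Ano1, chr7:144738524-144738823, minus strand: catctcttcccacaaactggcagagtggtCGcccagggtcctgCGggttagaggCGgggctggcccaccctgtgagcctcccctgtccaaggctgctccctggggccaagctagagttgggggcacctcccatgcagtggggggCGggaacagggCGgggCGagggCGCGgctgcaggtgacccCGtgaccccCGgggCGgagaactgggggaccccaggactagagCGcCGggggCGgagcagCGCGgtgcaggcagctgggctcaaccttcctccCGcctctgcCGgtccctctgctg
Mex3b, chr7:82867083-82867382, plus strand: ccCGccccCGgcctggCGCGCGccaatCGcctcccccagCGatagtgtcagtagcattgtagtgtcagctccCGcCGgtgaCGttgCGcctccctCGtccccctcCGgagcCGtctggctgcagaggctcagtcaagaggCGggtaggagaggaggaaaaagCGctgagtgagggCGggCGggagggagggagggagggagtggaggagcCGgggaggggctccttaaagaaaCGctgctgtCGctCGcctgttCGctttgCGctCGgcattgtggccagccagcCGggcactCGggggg
Zfp503, chr14:21989552-21989851, minus strand: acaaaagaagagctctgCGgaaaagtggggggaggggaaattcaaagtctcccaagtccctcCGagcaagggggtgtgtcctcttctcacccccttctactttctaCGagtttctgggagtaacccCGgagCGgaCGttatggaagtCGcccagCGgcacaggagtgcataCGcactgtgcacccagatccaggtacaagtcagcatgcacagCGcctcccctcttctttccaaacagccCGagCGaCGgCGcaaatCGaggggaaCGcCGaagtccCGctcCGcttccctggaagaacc
The motif counted is CG, which reads the same on both strands. The Ano1 promoter holds 18 such sites, that of Mex3b 27 and that of Zfp503 19, against a median of 7 in 31365 autosomal promoters, of which 94.7% hold at least 1. Values at promoters are sums over the 2 windows that cover them, not means per window. For Ano1 the mean sum was 0.145 ± 0.0943 CPM in adenomas (SD, n = 16), 0.0465 ± 0.0596 in normal mucosa (n = 14) and 0.0362 ± 0.0408 in wild type mucosa (n = 16). Over the Mex3b promoter the mean sums were 0.0534 ± 0.0856, 0.00780 ± 0.0205 and 0.00292 ± 0.0117 CPM. Over the Zfp503 promoter they were 0.0350 ± 0.0501, 0.0442 ± 0.0494 and 0.0570 ± 0.0729 CPM. Captured DNA was thus sparse at all 3 promoters, and the ranges of adenomas and normal mucosa overlapped. In the Ano1 promoter window nearest to the lead window, chr7:144738501-144738750, 9 of 16 adenomas exceeded all normal libraries.

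Adenomas were compared with normal mucosa of Min mice over the 5 strains with both. Of the 382 member windows, 4 passed at an adjusted p under 0.05 (edgeR), and all 4 were higher in adenomas: 2 at Otop2/Ush1g, 1 at Onecut3 and 1 at Mettl16. Of all windows 0.000768% passed, which is 9 windows. With each library left out the 9 became 0 (without the C1_5F1 adenoma 5_4, with 43159 windows at an unadjusted p under 0.05) to 42 (without the C1_5F1 adenoma 5_2), and with a factor for the number that opens each label 113. This contrast chose the genes, so nothing is read from the count, and the loci are described below by their values.

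Among the transcription factors, Onecut3, a homeobox factor of the Onecut family, went from almost no captured DNA to a clear signal in B6 adenomas. The adenomas of other strains held 0 to 11 counts each. Its lead window, chr10:80503001-80503250 (mm10), lies inside the gene (chr10:80494906-80517266), and whether it is exonic was not analysed here. It held 92 counts in 16 adenomas, 9 in 14 normal libraries and 6 in 16 wild type libraries. B6 adenomas had 0.887, 0.785, 0.402, 0.307 and 0.299 CPM, and all 3 B6 normal libraries were at 0. Against a floor of 3 counts over those 3 libraries, the B6 adenomas together were at least 12.4-fold higher. Because that group was at 0, no fitted difference over the strains is given for Onecut3. The other adenomas had 0.250, 0.136 and 0.0499 CPM in B6xPWD, 0.478, 0.216 and 0.163 in C5F1, 0.263, 0.149 and 0.0550 in C5, and 0.652 and 0 in C1_5F1. The C5 normal libraries had 0.106, 0.0509 and 0.0424 CPM, which overlap the C5 adenomas. With 0.106 CPM in the highest normal library, 13 of 16 adenomas and no wild type library exceeded all normal libraries.

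Zfp503 codes for a zinc finger protein that represses transcription. Its lead window, chr14:21985001-21985250, lies in the gene (chr14:21983959-21989601), 4351 to 4600 bp downstream of the start. B6 adenomas had 1.15, 1.01, 0.871, 0.832 and 0.832 CPM, and B6 normal mucosa 0.153, 0.122 and 0. The C5F1 adenomas had 1.08, 0.522 and 0.380 CPM against 0.131, 0.107 and 0.0922, so both strains were free of overlap. In C5 the adenomas split into 0.702, 0.0550 and 0 CPM, around normal values of 0.212, 0.159 and 0.102. In B6xPWD the adenomas (0.499, 0.453 and 0.375 CPM) lay within the range of normal mucosa (0.592, 0.220 and 0.0472), whose highest value is that of sample 11_6. The difference over the strains was 1.75 ± 0.33 (log2, SE), 8 of 16 adenomas exceeded all normal libraries, and so did 1 wild type library, PWD 11_1 with 0.788 CPM.

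Bcl11b, a zinc finger factor known from T cell development, had the smallest contrast of the 3 factors. Its lead window, chr12:107998251-107998500, lies 4914 to 5163 bp downstream of a start inside the gene (chr12:107910403-108004145). Adenomas ranged from 0.195 to 1.20 CPM with a median of 0.627, normal mucosa from 0.0531 to 0.449 with a median of 0.301, and wild type mucosa from 0 to 0.689 with a median of 0.315. The difference was 0.99 ± 0.25 (log2, SE). All normal libraries were exceeded by 12 of 16 adenomas and by 3 of 16 wild type libraries.

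Of the genes that act on RNA, Mex3b, which codes for an RNA-binding protein with KH domains, was captured in every library. Its lead window, chr7:82869001-82869250, lies in the gene (chr7:82867333-82871576), 1668 to 1917 bp downstream of the start. B6 adenomas had 2.30, 2.19, 1.68, 1.66 and 1.58 CPM and B6 normal mucosa 0.979, 0.645 and 0.610, with no overlap. In C5 the adenomas had 1.14, 1.04 and 0.879 CPM and normal mucosa 1.22, 1.19 and 0.425, which overlap. The difference over the strains was 0.85 ± 0.17 (log2, SE), the smallest of the 6 loci for which one is given. All normal libraries were exceeded by 9 of 16 adenomas and by 1 wild type library, B6 4_4 with 1.36 CPM.

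Mettl16 codes for a methyltransferase that places N6-methyladenosine on RNA. Its lead window, chr11:74823251-74823500, lies 52388 to 52637 bp downstream of the start, near the far end of the gene (chr11:74770815-74826855). B6 adenomas had 1.28, 0.832, 0.785, 0.737 and 0.499 CPM and B6 normal mucosa 0.489, 0.356 and 0.287. The C5F1 adenomas had 1.03, 0.782 and 0.489 CPM against 0.320, 0.0461 and 0. The B6xPWD adenomas had 0.698, 0.375 and 0.227 CPM against 0.0943, 0.0493 and 0, so none of these 3 strains overlapped, although B6 came within 0.499 and 0.489 CPM. The C5 adenomas (0.658, 0.550 and 0.497 CPM) also lay above normal mucosa (0.407, 0.254 and 0.0531). In C1_5F1, by contrast, the adenomas (0.652 and 0.455 CPM) spread around normal mucosa (0.616 and 0.519). The difference over the strains was 1.61 ± 0.27 (log2, SE). All normal libraries were exceeded by 9 of 16 adenomas and by 1 wild type library, B6 4_4 with 0.753 CPM.

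Otop2, which codes for a proton channel, and Ush1g, which codes for a scaffold protein of sensory hair cells, have their shared lead window at chr11:115318751-115319000, inside both genes (Otop2 at chr11:115307163-115332306, Ush1g at chr11:115315192-115333736). It lies 11588 to 11837 bp downstream of the first RefSeq start of Otop2 and at -3779 to -3530 bp from the other, upstream of it. B6 adenomas had 1.89, 1.57, 1.49, 1.47 and 1.31 CPM and B6 normal mucosa 0.394, 0.285 and 0.203. The other adenomas had 1.37, 0.634 and 0.449 CPM in B6xPWD, 1.19, 0.565 and 0.380 in C5F1, 0.482, 0.448 and 0.440 in C5, and 1.30 and 0.195 in C1_5F1. All but 0.380 and 0.195 CPM exceeded the highest normal library, which makes 14 of 16 adenomas, the most of any locus. So did 2 of 16 wild type libraries, PWD 11_1 with 0.473 CPM and B6 10_1 with 0.440. The difference was 1.83 ± 0.25 (log2, SE).

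Ano1 codes for a calcium-activated chloride channel. Its lead window, chr7:144738251-144738500, begins 73 bp downstream of a RefSeq start inside the gene (chr7:144588549-144752026), next to the promoter printed above. B6 adenomas had 1.07, 0.998, 0.804, 0.561 and 0.263 CPM and B6 normal mucosa 0.0816, 0.0716 and 0. The B6xPWD adenomas had 1.12, 0.770 and 0.0499 CPM and the C5F1 adenomas 0.826, 0.702 and 0.109, so 1 adenoma of each stayed low. In C5 the adenomas (0.263, 0.199 and 0.110 CPM) overlapped normal mucosa (0.255, 0.169 and 0.106). The difference over the strains was 2.00 ± 0.40 (log2, SE), and 11 of 16 adenomas but no wild type library exceeded all normal libraries.

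**Figure D1:**
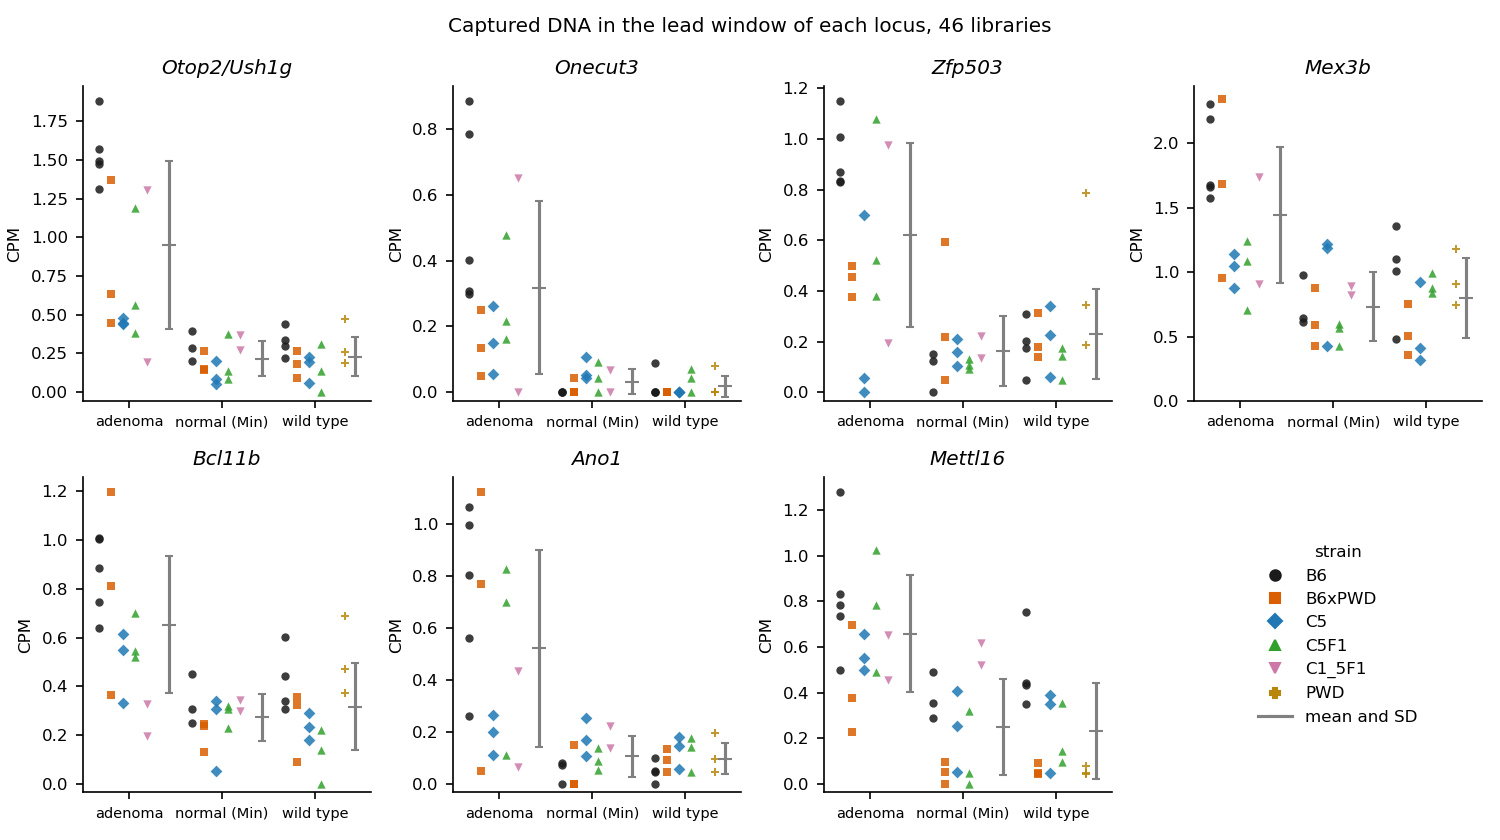
Captured DNA (CPM, linear axes) in the lead window of the 7 loci, 1 point per library by tissue, with colour and shape for the strain; grey marks give the mean and SD over the libraries of a tissue (16 adenoma, 14 normal, 16 wild type). The B6 adenomas (black) exceed all normal libraries in 34 of 35 values.

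Counted over the 7 loci, 76 of 112 adenoma values exceeded all normal libraries, against 8 of 112 wild type values. The 5 B6 adenomas did so at 7, 7, 7, 7 and 6 loci. The other adenomas did so at 5, 4 and 3 loci in B6xPWD, at 7, 5 and 2 in C5F1, at 6, 3 and 1 in C5, and at 6 and 0 in C1_5F1. Adenomas of 1 strain thus differed widely outside B6. Against the mean of normal mucosa of their own strain, 13 of the 16 adenomas were higher at all 7 loci, and the rest (C5 12_5, C5 16_3 and C1_5F1 5_2) at 6, 3 and 2.

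How much of a library lay in CpG-dense windows moved with the number of loci. The 3 adenomas labelled 16 had shares of 4.18%, 4.45% and 5.96% and exceeded all normal libraries at 1, 2 and 3 loci. The other 13 had shares of 5.70% to 7.76% and a median of 6 loci. Over the 16 adenomas, the mean standardised level at the loci and this share had a Pearson r of 0.65 and a Spearman rho of 0.64, as a description of values that share libraries. Its part in the gains was not tested.

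The place of the gains relative to CpG-dense windows differed between loci, and Mettl16 had no dense window within 3000 bp. At Otop2/Ush1g the windows 500 and 250 bp before the lead window, the lead window and the next one (scores 20.2, 21.8, 27.6 and 10.4) averaged 0.724, 0.851, 0.950 and 0.616 CPM in adenomas and 0.155, 0.186, 0.216 and 0.292 in normal mucosa. Here the densest window within 3000 bp was the lead window itself. At Zfp503 the window 250 bp towards the start of the gene (score 26.7) had 0.578 CPM in adenomas and 0.184 in normal mucosa, and the one at 750 bp (score 25.9) had 0.0885 and 0.0224. At 1000 bp, where the score rose to 30.7, the means were 0.0219 and 0.00303 CPM, and 5 of 16 adenomas still exceeded all normal libraries.

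At Onecut3 the window 500 bp towards higher coordinates had a score of 18.0, above that of the lead window, and held 0.0116 CPM in adenomas and 0.0158 in normal mucosa. At Bcl11b the same step led from 0.652 to 0.00419 CPM in adenomas, at a score of 16.3. The densest windows of Onecut3 (score 42.9), Zfp503 (41.9), Mex3b (35.8), Bcl11b (40.1) and Ano1 (34.7) all averaged at most 0.0243 CPM in each tissue, so the densest parts of these genes were nearly free of captured DNA in adenomas too.

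Mex3b had another form, because its gain adjoined a stretch captured in all tissues. There, 750 bp towards higher coordinates, adenomas averaged 3.08 CPM, normal mucosa 2.80 and wild type mucosa 2.87. In the window 250 bp before the lead window the means were 0.449, 0.171 and 0.153 CPM, and 500 bp before it they were 0.00347, 0.0150 and 0.0181. At Mettl16 the lead window averaged 0.659 CPM in adenomas between neighbours at 0.0122 and 0.0299, so the mean gain there was 1 window wide.

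**Figure D2:**
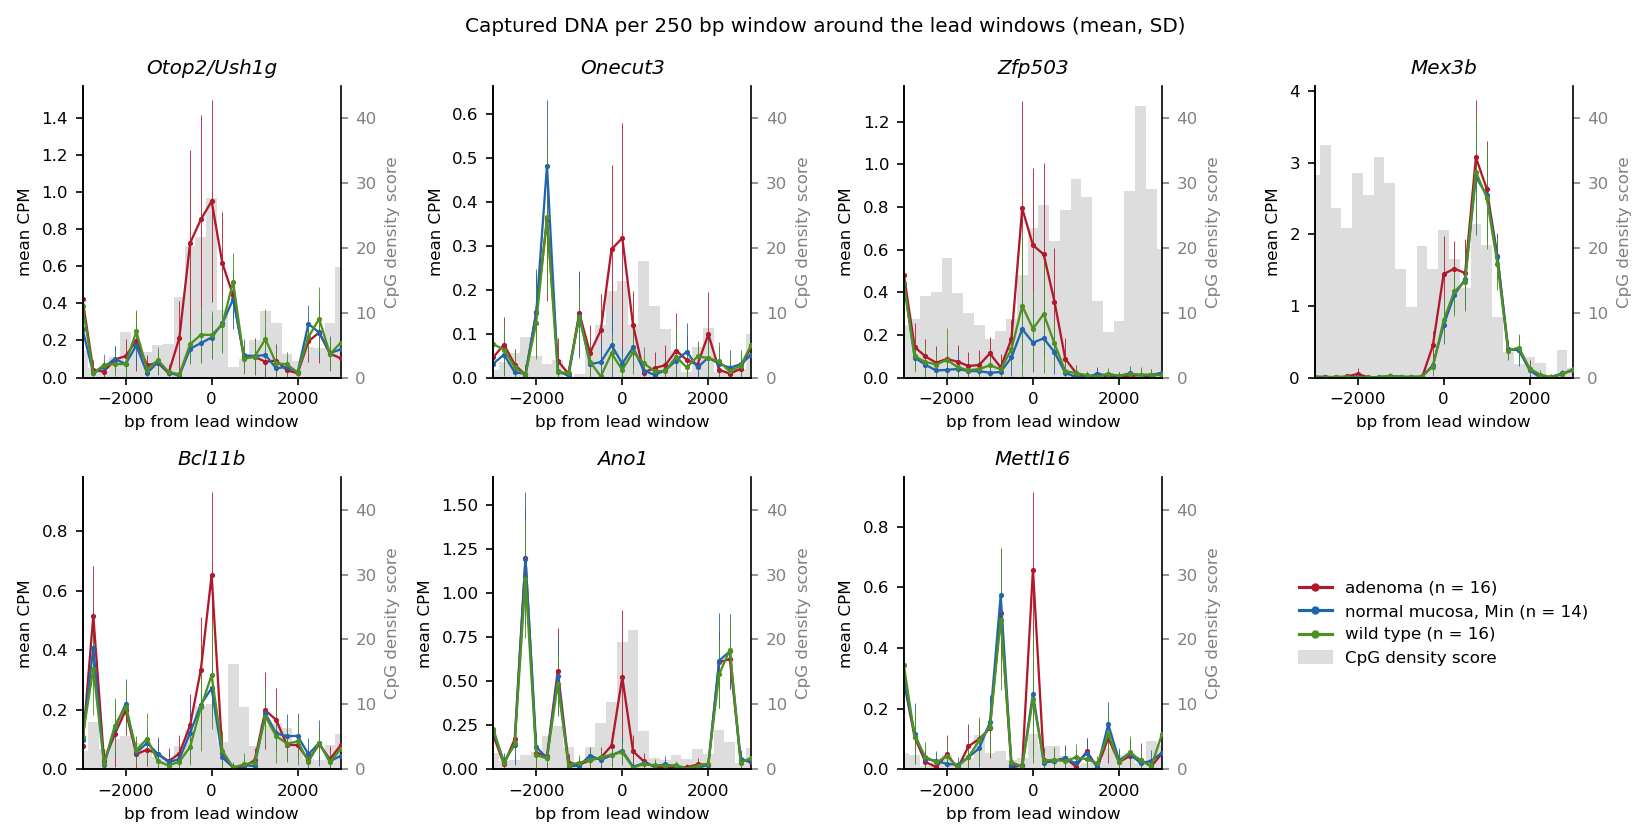
Mean CPM per window (left axis, lines with SD bars) in adenomas, normal mucosa and wild type mucosa from 3000 bp before to 3000 bp after each lead window in genome order, over the CpG density score (grey, right axis). The adenoma line departs mainly at the lead window at Mettl16 and Bcl11b and over a few windows at the other loci. It is back near 0 at 500 bp after the lead window at Onecut3 and Bcl11b and at 1000 bp at Zfp503, windows with a higher score than the lead window.

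The width of a gain was measured in each library as the run of neighbouring windows around the lead window that all exceeded every normal library, and as 0 where the lead window did not. Over 7 loci and 16 adenomas the mean width was 458 bp, the median 250 bp and the highest 1500 bp, and 41 of 112 values were over 500 bp. In wild type libraries the mean was 33.5 bp and 2 of 112 values were over 500 bp, both in PWD 11_1, with 1250 bp at Zfp503 and 750 bp at Otop2/Ush1g. The wild type mean was 11.9 bp without PWD 11_1, and 55.8 bp without the normal library 11_6 in the reference. With the highest normal library of the same strain as reference, the means were 721 bp in adenomas and 135 bp in wild type mucosa. That reference holds fewer libraries and is easier to exceed. PWD has no normal library and drops out, which leaves 91 wild type values.

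The gain at Otop2/Ush1g was the widest by its median of 1125 bp. All 5 B6 adenomas had 1250 bp there, from chr11:115318001 to chr11:115319250, and no adenoma went beyond these ends. At Onecut3 the runs stayed within chr10:80502251-80503500, with 750 to 1000 bp in B6 and at most 500 bp in B6xPWD and C5. At Zfp503 the B6 adenomas had 1500, 1250, 1000, 750 and 500 bp, 1 adenoma of C5F1, C5 and C1_5F1 each had 1250, 750 and 750 bp, and no B6xPWD adenoma had a run. The 8 adenomas with a run at Zfp503 all had the 500 bp of chr14:21984751-21985250 in common.

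Mex3b runs were 500 to 1000 bp wide in B6 and absent in the 3 C5 adenomas. Ano1 runs stayed within chr7:144737501-144739000 and reached 1250 bp in a B6xPWD adenoma. By mean width Mettl16 (203 bp) and Bcl11b (297 bp) had the narrowest gains, although 2 adenomas reached 750 bp at each. By strain the mean width was 729 bp in B6, 452 bp in C5F1, 357 bp in B6xPWD, 268 bp in C1_5F1 and 238 bp in C5. The B6 adenomas averaged 643 to 821 bp each, and of the others only C5F1 12_6, with 821 bp, reached that range. The adenomas labelled 16 averaged 71.4 bp (C5), 107 bp (C5F1) and 357 bp (B6xPWD), and no B6 adenoma has that label. Labels of B6 adenomas open with numbers that no other adenoma has, so strain and label number cannot be told apart for B6.

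**Figure D3:**
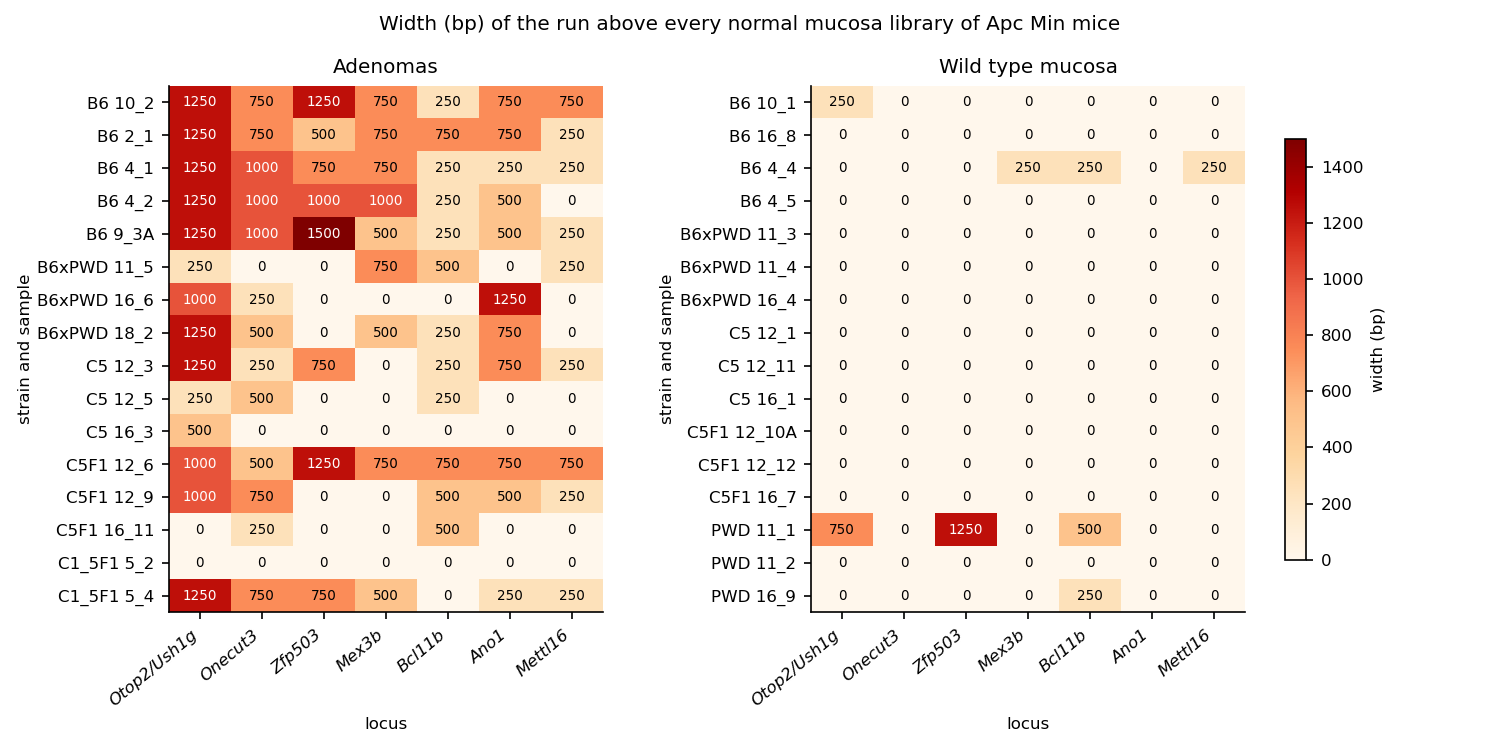
Width in bp of the run around each lead window in which a library exceeded all 14 normal libraries, for 16 adenomas (left) and 16 wild type libraries (right), with samples in rows, loci in columns and darker colour for wider runs. B6 adenomas have a run in 34 of 35 cells and wild type libraries in 8 of 112.

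Outside the span of the runs, adenomas and normal mucosa had similar though not always equal levels, which were not tested against each other. The 389 remaining windows of Bcl11b averaged 0.323 ± 0.0322 CPM per window in adenomas (SD, n = 16) and 0.309 ± 0.0303 in normal mucosa (n = 14). The 665 of Ano1 averaged 0.135 ± 0.0105 and 0.137 ± 0.0137, and the 237 of Mettl16 0.102 ± 0.00858 and 0.10 ± 0.00749. At Zfp503 the 33 remaining windows averaged 0.0828 ± 0.0196 and 0.0679 ± 0.0147, a gap about as large as the spread between libraries. Onecut3 had 0.166 ± 0.0244 and 0.153 ± 0.0235, and Mex3b 0.325 ± 0.0513 and 0.311 ± 0.0540, both somewhat higher in adenomas. Otop2 had 0.219 ± 0.0248 and 0.218 ± 0.0327, and Ush1g 0.198 ± 0.0262 and 0.192 ± 0.0309.

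PWD was set against B6 in wild type mucosa, to ask how the members differ by strain without a tumour or the Min allele. Of the 382 member windows 63 passed (16.5%; edgeR, adjusted p under 0.05), 31 higher and 32 lower in PWD. Of all windows 19.7% passed, 7.35% higher and 12.3% lower, so the share of the members was near the background. Without PWD 11_1, 40 member windows passed, and 22 did when the number that opens each label entered the model. The reads were aligned to mm10, a genome of the B6 strain.

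Among the 7 lead windows only that of Mettl16 passed. The B6 wild type libraries had 0.753, 0.442, 0.435 and 0.352 CPM and the PWD libraries 0.0788, 0.0467 and 0.0431, with no overlap. The difference was -2.97 ± 0.65 (log2, SE; edgeR adjusted p = 0.000323). It rests on only 2, 1 and 1 counts in the PWD libraries, so its size is imprecise. The only input library, a B6xPWD adenoma, held 0 counts there, and the part of read alignment was not tested. B6xPWD mucosa was also low at Mettl16, with 0.0923, 0.0449 and 0.0444 CPM in wild type and 0.0943, 0.0493 and 0 in normal mucosa, whereas its adenomas had 0.227 to 0.698 CPM.

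Inside the spans of the adenoma runs, 2 more windows passed and both were higher in PWD. At Otop2/Ush1g, chr11:115318251-115318500 had 0.434, 0.302 and 0.187 CPM in PWD and 0.176, 0.10, 0.0483 and 0.0442 in B6, with a difference of 1.69 ± 0.60 (log2, SE; edgeR adjusted p = 0.0368). That call was lost without B6 16_8, 4_4 or 4_5 or without PWD 11_1 or 16_9, with adjusted p up to 0.219. It was also lost with a minimum count of 5 (adjusted p = 0.0511), with no filter (0.0985), with the label factor (0.105), with DESeq2 (0.0536) and without the libraries labelled 16 (0.0885). At Zfp503, chr14:21984751-21985000 had 1.58, 0.345 and 0.233 CPM in PWD and 0.310, 0.301, 0.241 and 0.0440 in B6, with a difference of 1.72 ± 0.56 (adjusted p = 0.0185). The highest of these values is that of PWD 11_1, and without it the difference was 0.40 with an adjusted p of 0.799, while without B6 10_1 the adjusted p was 0.0997. The label factor (1.04, adjusted p = 0.480) and DESeq2 (adjusted p = 0.0519) ended this call as well.

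**Figure D4:**
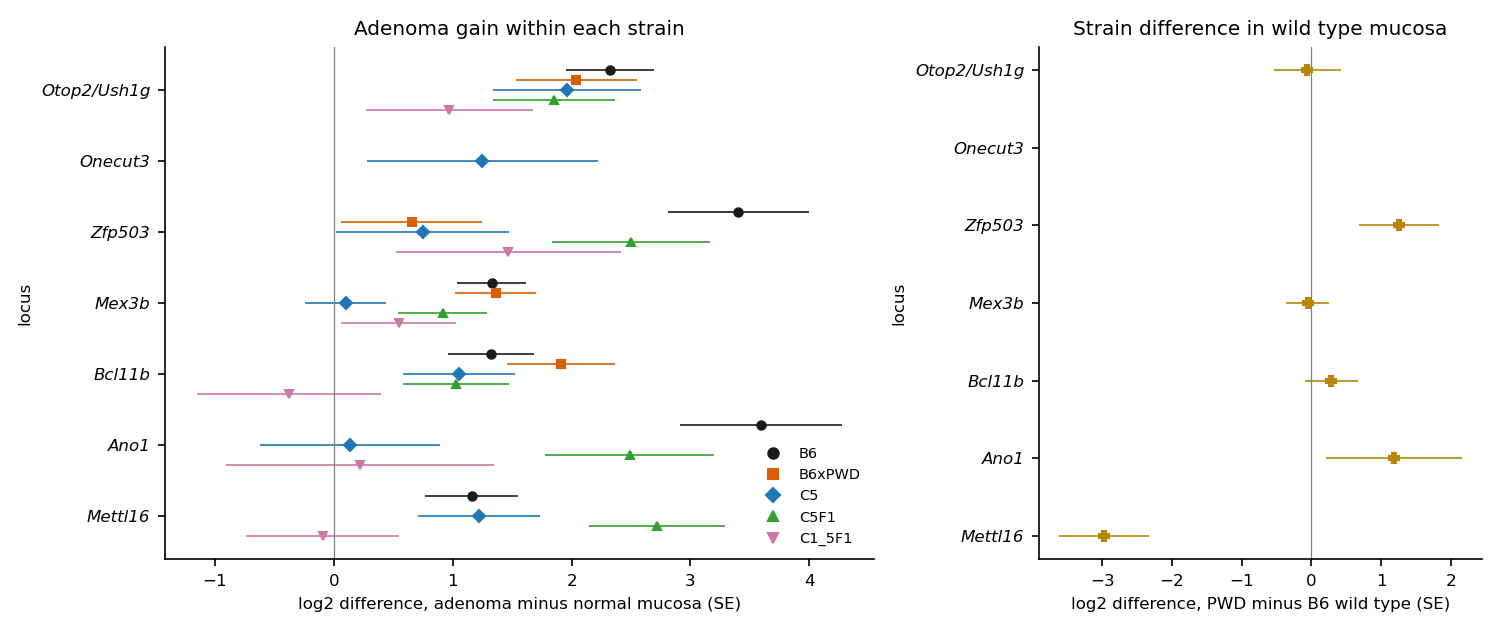
Left, log2 difference of adenoma minus normal mucosa with SE at the lead windows in each strain, as a description (strains with 3 counts or fewer in a tissue are left out, which holds for most of Onecut3). Right, PWD minus B6 in wild type mucosa with SE, where only Mettl16, at -2.97, passed the test.

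The fitted gains by strain are given as a description, since no member window passed the test of a difference between strains. At Zfp503 the gain was 3.40 ± 0.59 in B6 and 0.65 ± 0.59 in B6xPWD (log2, SE). At Ano1 B6 had 3.59 ± 0.68 and C5 0.14 ± 0.76, and at Mettl16 it was 2.72 ± 0.57 in C5F1 and 1.16 ± 0.39 in B6. Otop2/Ush1g ranged from 0.97 ± 0.70 in C1_5F1 to 2.32 ± 0.37 in B6. In C1_5F1, with 2 adenomas, Bcl11b (-0.38 ± 0.77) and Mettl16 (-0.09 ± 0.64) were not above normal mucosa, and 4 of 6 loci had a value above 0. The F test over the 5 strains (edgeR) called 0 of the 382 member windows and 0% of all windows. DESeq2 on CpG-dense windows also called 0, but these hold only 55 member windows and not the lead windows of Bcl11b and Mettl16. In edgeR, 15 member windows (3.93%) had an unadjusted p under 0.05, against 2.20% of all windows. They included the lead windows of Ano1, Mettl16 and Zfp503, each with an adjusted p of 1. The adenoma and normal libraries in this test also chose the members, so nothing is read from the share of 3.93%.

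Normal mucosa of Min mice was set against wild type mucosa in the 4 strains with both, to ask whether the members differ outside the adenomas. The normal libraries are also part of the contrast that chose the genes. None of the 382 member windows passed (edgeR) and 0% of all windows did. DESeq2 on CpG-dense windows, which hold 55 of the member windows, called 0 too. In edgeR, 11 member windows (2.88%) had an unadjusted p under 0.05, against 2.54% of all windows. The differences were -0.11 ± 0.33 at Otop2/Ush1g, -0.30 ± 0.40 at Zfp503, -0.03 ± 0.19 at Mex3b, 0.10 ± 0.26 at Bcl11b, -0.14 ± 0.50 at Ano1 and -0.40 ± 0.39 at Mettl16 (log2, SE). Each was close to or below its SE. Onecut3, with 9 counts in all normal libraries and 6 in all wild type libraries, has no fitted value here.

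Levels at the loci were compared with each other across adenomas. The windows were chosen by their values in these adenomas and the permutations ignored strain, so the p-values below are not independent evidence. Over the 16 adenomas, Pearson's r of log2(CPM + 0.1) between lead windows was above 0 for all 21 pairs, with a median of 0.51, and 8 pairs had an adjusted p under 0.05 (permutation test, 100000 resamples, two-sided, Benjamini-Hochberg over the 21 pairs). The closest pair was Otop2/Ush1g with Onecut3 (r = 0.80, permutation p = 0.0002, adjusted p = 0.0042; rho = 0.79, permutation p = 0.00058, adjusted p = 0.00483). Without the 2 adenomas farthest from the median at Otop2/Ush1g its r was 0.68. Otop2/Ush1g with Ano1 had r = 0.78 (permutation p = 0.00086, adjusted p = 0.00903) and rho = 0.77 (permutation p = 0.00069, adjusted p = 0.00483), and r = 0.70 without those 2.

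With the mean of each strain subtracted, 18 of 21 pairs were above 0, the median r was 0.46 and 5 pairs passed. The permutations did not allow for the subtracted means, so that count is only a description. The highest r within strains was that of Mex3b with Mettl16, 0.84, from 0.50 pooled, followed by Otop2/Ush1g with Onecut3 at 0.74 and Mex3b with Bcl11b at 0.73. Ano1 and Mettl16 had the lowest pooled r, 0.13. When libraries were scaled to their CpG-dense counts, 6 pairs passed and the median r was 0.34. Without the 3 adenomas labelled 16, 3 pairs passed with a median of 0.48. Without C1_5F1 5_2, the adenoma with no locus above normal mucosa, 4 pairs passed, and without B6xPWD 11_5 14 did.

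**Figure D5:**
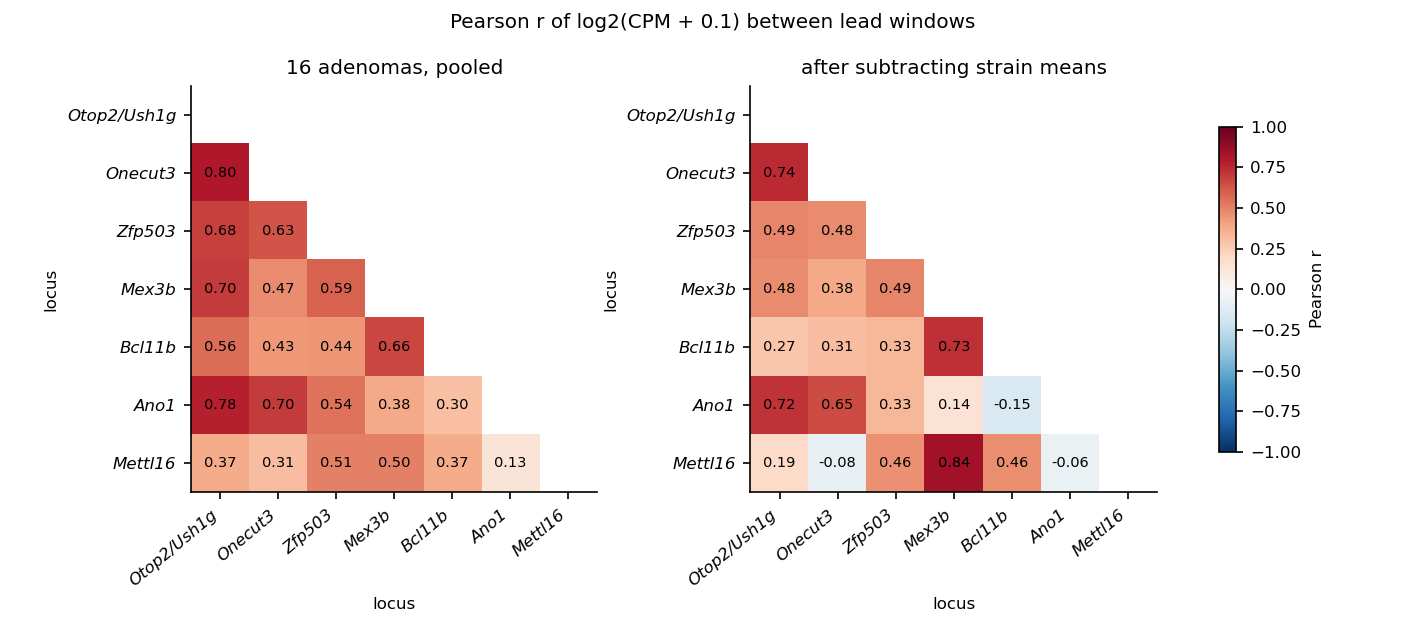
Pearson r of log2(CPM + 0.1) between lead windows for each pair of loci over 16 adenomas, pooled (left) and after subtracting strain means (right), with red for positive and blue for negative r. All 21 pooled cells are positive, and within strains 18 are.

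Some other CpG-dense windows followed the members over all 46 libraries. The measure of likeness was the Pearson r with the mean standardised level of the lead windows, as a description. Among 38656 dense windows at 10847 other genes its median was 0.20 and its 99th percentile 0.54. The highest values were those of Snx15 (0.80), which codes for a sorting nexin, Slc9a3 (0.80), a sodium-proton exchanger of the gut brush border, Cbln4 (0.78), a secreted cerebellin, Aldh1b1 (0.77), a mitochondrial aldehyde dehydrogenase, and Cdh7 (0.76), a cadherin. With the mean of each strain and tissue subtracted, these 5 had r from 0.31 (Slc9a3) to 0.65 (Aldh1b1).

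Relatives of the members were listed by family or complex. They are Otop1 and Otop3, the Usher genes Ush1c, Myo7a, Cdh23, Pcdh15 and Cib2, Onecut1 and Onecut2, Zfp703, Mex3a, Mex3c and Mex3d, Bcl11a, the anoctamins Ano2 to Ano10, and the RNA methyltransferase genes Mettl3, Mettl14, Mettl5 and Zcchc4. The 27 genes held 2128 tested windows, of which 0 passed for adenomas against normal mucosa (edgeR), and 70 (3.29%) had an unadjusted p under 0.05, against 3.95% of all windows. Their median log2 difference was 0.00053, against -0.0021 over all windows. For PWD against B6, 166 windows of the relatives were higher and 253 lower (19.7% in all).

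Markers of the cell types a sample could hold were compared by captured DNA around their start sites, summed over each list. Of 7 epithelial markers 5 had a start in the table, their sum ranged from 2.69 to 5.29 CPM in adenomas and from 2.99 to 5.42 in normal mucosa, and 2 were higher in adenomas with strains weighted equally. Of 5 immune markers 4 had a start, with sums of 6.16 to 9.87 and 6.97 to 9.78 CPM and 1 higher. Of 5 markers of stroma and vessels 3 had a start, with sums of 3.31 to 5.39 and 3.35 to 5.50 CPM and 2 higher, and neither of the 2 smooth muscle markers had one. The ranges overlapped for every list, captured DNA does not count cells, and the part of cell makeup in the gains was not tested.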

How the data were processed

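MeDIP sequencing captures DNA fragments with an antibody against 5-methylcytosine. The authors deposited raw read counts per 250 bp window for 46 MeDIP libraries and 1 input library, with a CpG density score per window in the deposited table. BWA and mm10 are named in the submitters' processing notes, and filters and the version of BWA are not stated there. Members and gene lists were chosen with earlier results of these data known. Autosomal windows with enough counts (edgeR filterByExpr, minimum count 10) were scaled by TMM (factors 0.945 to 1.12) and fitted with edgeR 4.0.16 (R 4.3.3) by the quasi-likelihood test in a model of 15 groups, with the dispersion trend from 100000 windows drawn with a fixed seed and Benjamini-Hochberg adjusted p over 1172069 windows. Strains were weighted equally in contrasts. The code was tested on simulated data. The lead window of a member is the tested window with the lowest p among those higher in adenomas. Genes like the members were the 5 with the highest r. Relatives and markers were taken from lists. Alternatives were DESeq2 1.42.0, other scalings and filters, a label factor, and each library left out. Arms left with 1 library were assumed to vary like the other groups. Window sequences and the C5F1 wild type sample 12_10 were not analysed here.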

Additional observations from a re-analysis of the deposited data

Results flagged for a closer look

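In 14 groups of 4 or 5 libraries (B6 adenomas and B6 wild type at each of the 7 loci), 1 library lay far from the others by Dixon's test. At Onecut3 the B6 wild type library 10_1 had 0.0879 CPM, from 2 counts, and the other 3 were at 0. Chance gives about 1 such library in 20 groups.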

How the results depend on the processing

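The median adenoma difference over the 7 lead windows was 1.75 on the log2 scale, with the Onecut3 fit that is not given above counted in. It was the same with Onecut3 at its bound. With each library left out it ranged from 1.499 to 1.96. With DESeq2 size factors, scaling to CpG-dense counts, the label factor or no libraries labelled 16 it was 1.70 to 1.90. The fits with a minimum count of 5, no filter or DESeq2 on CpG-dense windows are not in this range. The mean width in adenomas ranged from 433 to 496 bp with each library left out. For Min normal mucosa against wild type, 0 windows passed under every setting run. For PWD against B6, 230560 windows passed, with 171746 to 236038 when each library was left out, 68276 with no filter on the member chromosomes, 116038 with a factor for the opening number of each label and 13182 with DESeq2 on 60753 CpG-dense windows (fewer windows were tested in this last fit; otherwise the cause was not tested). Of the 382 member windows 63 passed, and 36, 22 and 6 did under those 3 settings, the last of which tested only 55 member windows. The Mettl16 lead window, with few counts in PWD, passed under every setting that tested it, with -3.55 to -2.85 apart from the fits with a library left out. The strain difference of the adenoma effect gave 0 windows, but 10 with no filter on the member chromosomes and 5 with the label factor, none of them in the members, and the cause was not tested. Pairs of loci that passed numbered 8, with 4 to 14 when each adenoma was left out, 5 within strains and 3 without the libraries labelled 16. The last setting, and leaving out libraries for the width, were chosen after seeing the data. No paired analysis was possible because no full sample label recurs between the MeDIP groups compared, and the labels do not say what the opening number, fitted as a factor above, marks. Windows with a few counts limit the precision at Onecut3 most.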
